A study of Mus musculus with 16 samples.

Results

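Kinesins are described here in oocytes and eggs with and without Psma7, a subunit of the 20S proteasome. All entries of the expression table named Kif or Kifc followed by a number were taken, which gave 48 of 28618 entries and 45 gene names. The entries comprised 43 for 40 motor genes, 3 for pseudogenes (Kif4-ps, Kif22-ps and Kifc5c-ps), 1 for Kif1bp and 1 for the antisense RNA Kif16bos. Kif11, Kif1b and Kif1c were listed 2 times each. The expressed entry of Kif11 and of Kif1b is the one described, since the other averaged at most 0.249 FPKM in a group.

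Polyadenylated RNA of WT and Psma7 cKO germinal vesicle (GV) oocytes and metaphase II (MII) eggs was sequenced by Smart-seq2, with 4 libraries in each of the 4 groups. The cKO females were Zp3-Cre; Psma7 flox/flox, in which Cre is expressed in growing oocytes and not in the surrounding follicle cells, and the WT females were labelled wildtype only. Females of all groups were 3 to 4 weeks old and received 5 IU PMSG. GV oocytes were taken 44 h later, whereas eggs were taken from the oviduct 14 to 16 h after hCG and treated with 0.3% hyaluronidase. The labels give 5 cells per library, and the study's methods give another number. The labels call the libraries biological replicates without saying whether each came from separate females, so p-values measure the spread between these libraries.

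Kinesins use ATP to walk along microtubules or to shorten their ends. Oocytes divide with a spindle that lacks centrioles, and kinesins build it, move chromosomes on it and organise its midzone when the polar body is cut off. A growing oocyte stores transcripts, and once maturation begins transcription is silent, so that transcript levels change through decay and through lengthening or shortening of the poly(A) tail.

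FPKM is a fragment count corrected for transcript length and for library size, so a value is a share of its library rather than an amount in a cell. cDNA was primed with oligo-dT, so that a change in RNA amount and a change in poly(A) tail length cannot be told apart. Each library is a pool, so fewer cells with a transcript and less of it per cell cannot be told apart either. Depth was estimated at 10.6 to 15.6 M fragments per library, from steps among low values that fitted loosely (as few as 38.1% of values in a library lay within 0.1 of a whole fragment). Psma7 was at 165 ± 25.3 FPKM in WT and 14.6 ± 2.82 FPKM in cKO GV oocytes, and at 126 ± 32.1 and 39.7 ± 20.2 FPKM in WT and cKO eggs (mean ± SD, n = 4 each). All 10 oocyte markers exceeded 1 FPKM in every group. Of 14 cumulus and granulosa markers, 3 did so. The 14 summed to 15.9 to 20.4 FPKM in GV and 19.5 to 23.3 FPKM in MII libraries. Of the 14, 7 in WT GV, 8 in cKO GV, 9 in WT MII and 9 in cKO MII stayed under 0.1 FPKM in all libraries. Ptx3, Tnfaip6, Cd44, Foxl2, Amh and Fshr were each listed at 0 throughout at least 1 group, but none of them in all 4 groups.

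Few kinesins made up most of the kinesin transcripts. A mean of at least 5 FPKM in some group was reached by 18 entries, and these are described singly. Another 21 entries stayed under a mean of 1 FPKM in every group, and 12 of the 48 never exceeded 0.1 FPKM in a library. By role, 10 of 16 entries of spindle and chromosome motors reached 5 FPKM, against 5 of 19 of transport motors and 2 of 6 of ciliary and signalling motors. All 48 entries summed to 906 ± 45.6 FPKM in WT and 898 ± 47.6 FPKM in cKO GV oocytes, and to 705 ± 5.77 and 679.8 ± 13.5 FPKM in WT and cKO eggs (n = 4 each). Spindle motors held 73.7 ± 1.87% of this sum in WT GV oocytes and 83.0 ± 0.689% in WT eggs, and 71.6 ± 1.07% and 81.2 ± 1.42% in cKO GV oocytes and eggs.

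The leading transcripts differed between stages. In WT GV oocytes the order was Kif22, Kif17, Kif2c, Kif20b, Kif4, Kif23 and Kif18a. Ranges of neighbours in this order overlapped for Kif2c and Kif20b and for Kif20b and Kif4. In WT eggs the order was Kif20b, Kif23, Kif18a, Kif4, Kif17, Kif22 and Kif2c, and none of these neighbours overlapped. The same 7 led in the same orders in cKO GV oocytes and cKO eggs, where the overlapping neighbours were Kif2c and Kif20b and Kif4 and Kif23 in GV oocytes, and Kif18a and Kif4, Kif4 and Kif17 and Kif17 and Kif22 in eggs. Kif22 held 25.1 ± 2.50% of the kinesin sum in WT GV oocytes and 6.43 ± 0.381% in WT eggs, whereas Kif20b held 9.69 ± 1.50% and 29.9 ± 2.30%.

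**Figure D1:**
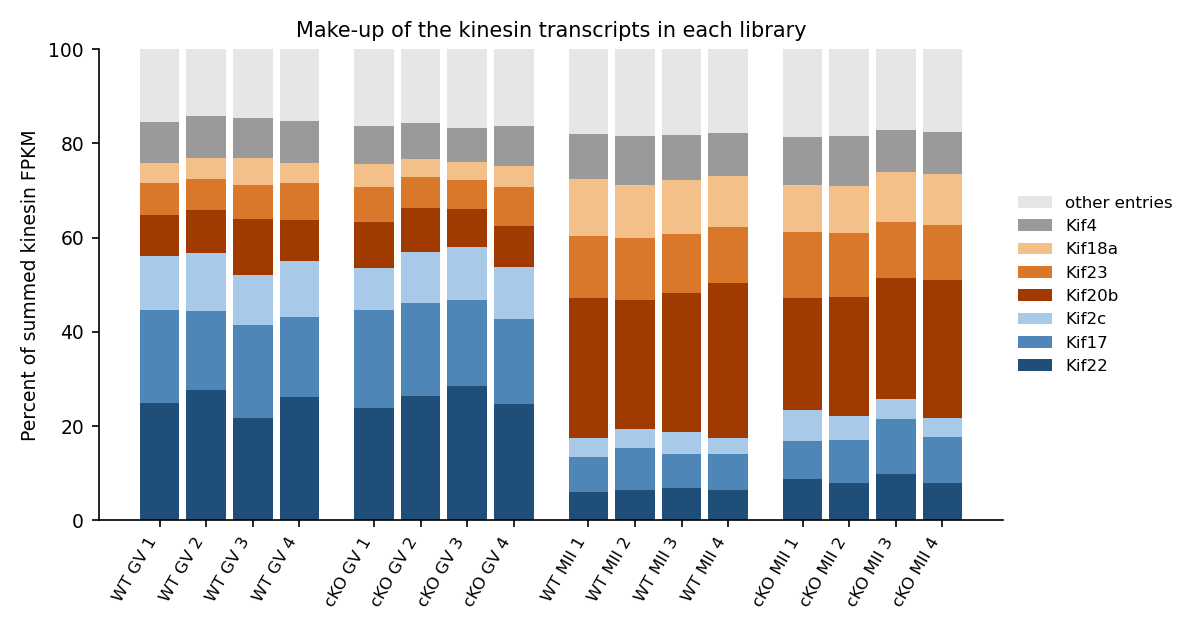
Percent of the summed kinesin FPKM (vertical axis) held by 7 kinesins and by all other entries in each of the 16 libraries (bars). Kif22, Kif17 and Kif2c (blue) together exceed Kif20b, Kif23 and Kif18a (brown to orange) in every GV bar, and the reverse holds in every MII bar.

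The first comparison was WT eggs against WT GV oocytes, which describes what normally happens to kinesin transcripts during maturation. Values under 1 FPKM were set to 1, the fit was made with limma over the whole table, and a Benjamini-Hochberg adjusted p under 0.05 counts as a call. Of 26 kinesin entries tested, 12 rose and 12 fell, while 26.1% of the 10475 entries of the whole table rose and 52.4% fell. Over 3-fold lower were 5 kinesin entries (Kif9, Kif22, Kif1bp, Kif2c and Kif17), beside 21.9% of all entries, and 0 were over 3-fold higher, beside 1.09% of all. The median log2 fold change was 0.10 over the 26 entries and -0.44 over all entries tested. Rescaling the libraries by the median ratio of their genes raised the median of all entries by 0.21 and gave 13 kinesin entries higher and 9 lower.

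Among spindle motors, 6 rose and 6 fell of 12 tested. Kif22, the chromokinesin Kid, which pushes chromosome arms away from the poles, was at 225, 266, 186 and 237 FPKM in WT GV oocytes and at 41.2, 45.9, 48.4 and 45.8 FPKM in WT eggs. Every egg library lay far below every GV library, and the log2 fold change was -2.32 (SE 0.11, adjusted p = 1.22e-08). Kif2c, the microtubule depolymerase MCAK of centromeres, was at 103, 118, 90.3 and 108 FPKM in GV oocytes and at 28.0, 29.3, 32.7 and 24.0 FPKM in eggs. The stages did not overlap (log2 fold change -1.88, SE 0.11, adjusted p = 7.49e-08).

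Kif20b, a plus-end motor of cytokinesis, moved the other way. It was at 80.2, 89.0, 102 and 78.9 FPKM in WT GV oocytes and at 207, 193, 209.7 and 234 FPKM in WT eggs. The lowest egg library was above the highest GV library, with a log2 fold change of 1.27 (SE 0.10, adjusted p = 5.22e-07). Kif18a, which damps microtubule growth at kinetochores and so limits chromosome movements, was at 38.1, 42.1, 47.8 and 37.9 FPKM in GV oocytes and at 84.0, 79.0, 81.5 and 76.4 FPKM in eggs. Its groups were likewise apart (log2 fold change 0.96, SE 0.09, adjusted p = 2.63e-06).

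The other depolymerase of this class, Kif2a, which acts at spindle poles, rose from 6.45 ± 1.19 to 12.0 ± 0.950 FPKM (log2 fold change 0.91, SE 0.13), opposite in direction to Kif2c. Kif23, the motor of the centralspindlin complex, rose from 64.1 ± 4.58 to 89.6 ± 4.04 FPKM (log2 fold change 0.48, SE 0.08). Kif14, a cytokinesis motor, rose from 20.8 ± 1.07 to 25.7 ± 1.65 FPKM (log2 fold change 0.31, SE 0.08). Kif2a, Kif23 and Kif14 each had egg libraries entirely above the GV libraries.

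Kif20a, which carries the Aurora B complex to the midzone, fell from 8.84 ± 1.59 to 4.64 ± 0.981 FPKM (log2 fold change -0.93, SE 0.18). Kif11, the motor that pushes spindle poles apart, fell from 19.4 ± 1.56 to 15.3 ± 1.79 FPKM (log2 fold change -0.34, SE 0.11, adjusted p = 0.0137), with overlapping groups. Kif4, a chromokinesin that also acts at the midzone, fell from 79.9 ± 5.72 to 68.4 ± 3.90 FPKM (log2 fold change -0.22, SE 0.08, adjusted p = 0.0247), also with overlap. The calls of Kif11, Kif4 and the transport motor Kif3a were lost under median-ratio rescaling, with adjusted p = 0.327, 0.997 and 0.861. Kif4 also lost its call without the intensity trend (adjusted p = 0.0547) and without WT GV replicate 2 or 4 or WT MII replicate 1, 3 or 4 (adjusted p up to 0.0689). Reads of Kif22, Kif4 and Kifc1 could be shared with their pseudogenes or with Kifc5b, so these values carry that uncertainty.

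**Figure D2:**
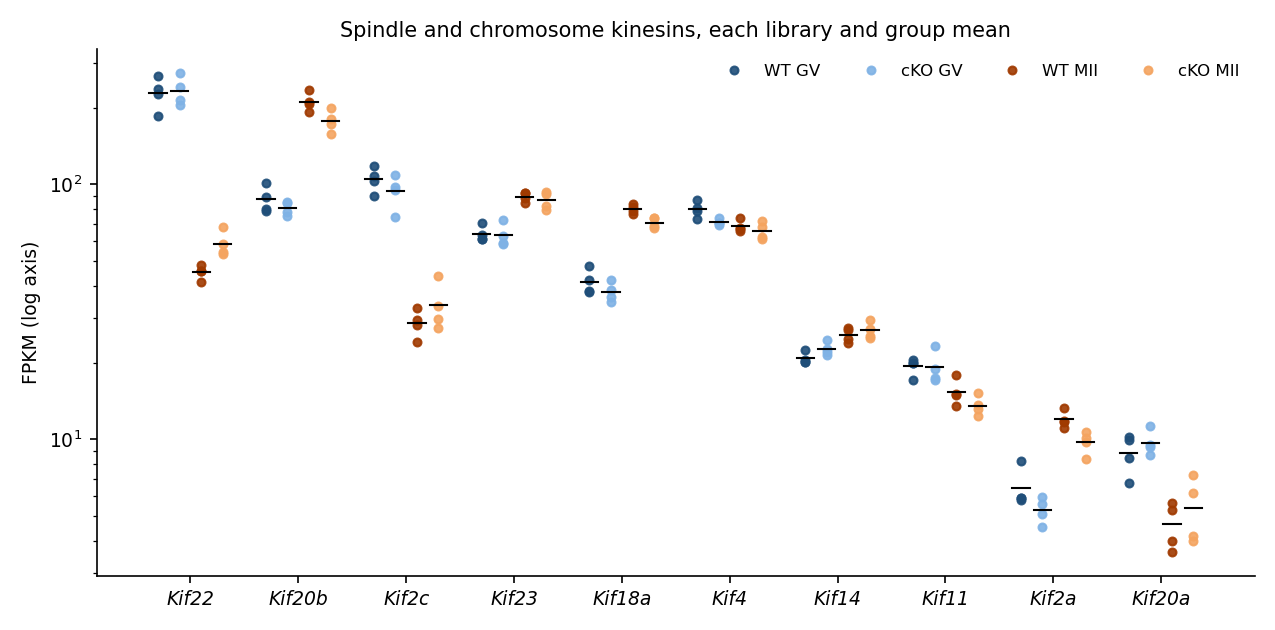
FPKM on a log axis of the 10 spindle and chromosome motors with a mean of at least 5 FPKM in some group, as 1 point per library (4 per group) and a line at the group mean. Kif22 and Kif2c are lower in all MII than in all GV libraries of both genotypes, whereas Kif20b, Kif18a, Kif23 and Kif2a are higher.

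Among transport motors, 5 rose and 3 fell of 10 tested. Kif17, a kinesin-2 motor known for dendritic transport in neurons, had the highest level of them in every group. It was at 179, 162, 168 and 152 FPKM in WT GV oocytes and at 51.9, 61.9, 51.2 and 53.8 FPKM in WT eggs. The groups were well separated (log2 fold change -1.60, SE 0.09, adjusted p = 3.36e-08). Kif5c and Kif5b, heavy chains of conventional kinesin, rose from 6.68 ± 0.764 to 11.4 ± 0.409 FPKM and from 6.23 ± 0.569 to 8.53 ± 0.663 FPKM (log2 fold change 0.78, SE 0.11, and 0.45, SE 0.11). Kifc3, a minus-end motor, fell from 6.68 ± 0.755 to 3.63 ± 0.824 FPKM (log2 fold change -0.90, SE 0.17). Kif3a, a subunit of the kinesin-2 of ciliary transport, fell from 19.0 ± 1.17 to 16.1 ± 0.523 FPKM (log2 fold change -0.24, SE 0.08, adjusted p = 0.0230). Its call was lost without WT GV replicate 1 or 2 or WT MII replicate 2 or 4 (adjusted p up to 0.0572).

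The ciliary motors Kif9 and Kif24 went in opposite directions. Kif9, known from the axoneme of sperm flagella, was at 5.76, 5.45, 5.59 and 6.17 FPKM in WT GV oocytes and at 0.946, 1.03, 0.925 and 1.09 FPKM in WT eggs. The stages were far apart (log2 fold change -2.48, SE 0.11, adjusted p = 1.05e-08). Kif24, a centriolar kinesin that restrains cilium formation, rose from 3.87 ± 0.0751 to 6.23 ± 0.359 FPKM (log2 fold change 0.69, SE 0.10). Kif1bp is no motor but a protein that binds motor domains and keeps them off microtubules. It fell from 10.1 ± 1.66 to 2.28 ± 0.393 FPKM (log2 fold change -2.14, SE 0.17, adjusted p = 6.39e-07).

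**Figure D3:**
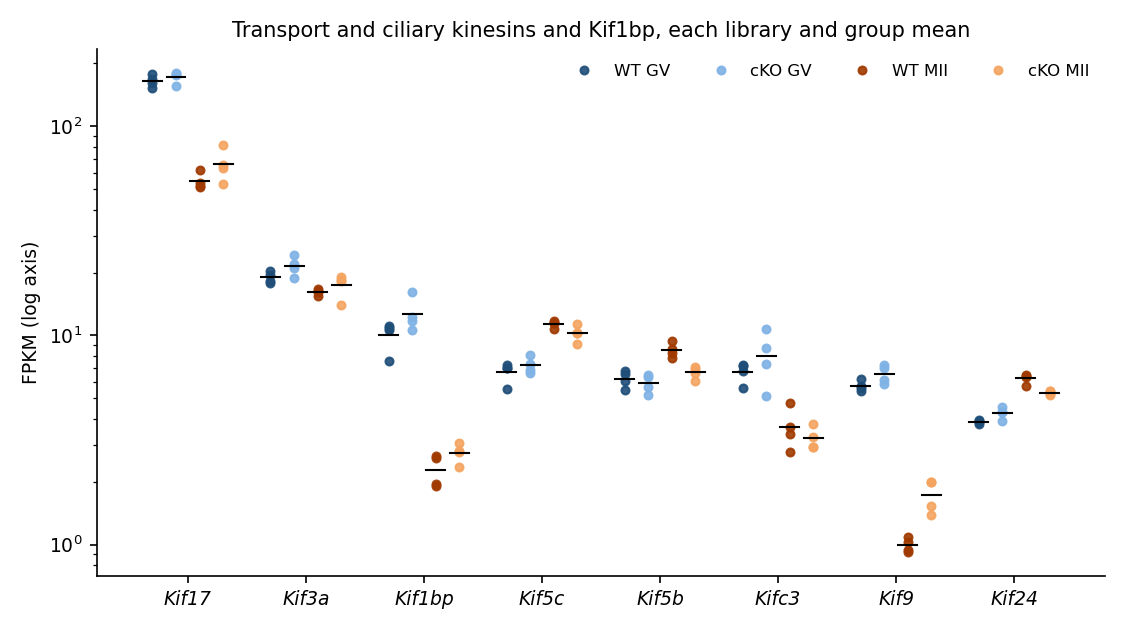
FPKM on a log axis of the 8 other entries with a mean of at least 5 FPKM in some group, as 1 point per library (4 per group) and a line at the group mean. Kif17, Kif1bp and Kif9 are lower in all MII than in all GV libraries, and the 4 cKO MII points of Kif9 lie above the 4 WT MII points.

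The remaining 8 tested entries had means under 5 FPKM, and their names are given after their values were seen. Kif3b, the partner of Kif3a, rose from 1.13 ± 0.204 to 2.96 ± 0.408 FPKM (log2 fold change 1.35 on the floored scale, SE 0.15), while Kif3a itself fell. Kif1b, Kif21a and Kif15 also rose, by 0.96, 0.76 and 0.45 on the log2 scale. The call of Kif15 was lost without WT GV replicate 2 or 4 or WT MII replicate 1, 2 or 3 (adjusted p up to 0.0743). Kifc1, the minus-end motor that focuses spindle poles, and the pseudogene Kifc5c-ps fell by 1.06 and 1.54, and Kif13b and Kif16b were not called.

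Next, cKO eggs were compared with cKO GV oocytes. Here 10 entries rose and 10 fell of 26 tested, beside 23.0% and 51.0% of all 10748 entries, and after median-ratio rescaling, which raised the median of all entries by 0.24, 12 rose and 9 fell. All 20 were called in WT too, with the same direction. Kif22 was at 204, 240.3, 273 and 214 FPKM in cKO GV oocytes and at 58.5, 53.1, 68.3 and 54.2 FPKM in cKO eggs. The stages did not overlap (log2 fold change -1.99, SE 0.12, adjusted p = 1.74e-06).

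Kif20b rose from 84.9, 85.3, 78.2 and 75.2 FPKM in cKO GV oocytes to 158, 172, 180.4 and 199 FPKM in cKO eggs, with no overlap (log2 fold change 1.13, SE 0.09). Kif18a rose from 37.9 ± 3.24 to 70.8 ± 3.35 FPKM (0.91, SE 0.09 on the log2 scale) and Kif23 from 63.1 ± 6.48 to 86.5 ± 6.85 FPKM (0.46, SE 0.10). Kif2c fell from 94.1 ± 14.4 to 33.6 ± 7.29 FPKM (log2 fold change -1.50, SE 0.17) and Kif17 from 172 ± 10.7 to 65.7 ± 11.6 FPKM (-1.41, SE 0.13). The fall of Kif1bp was -2.19 (SE 0.15) on the log2 scale and that of Kif9 -1.94 (SE 0.16).

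Kif5b, Kif15, Kif4 and Kif3a were called in WT only, with log2 fold changes in cKO of 0.17, 0.08, -0.12 and -0.31 (adjusted p = 0.204, 0.547, 0.219 and 0.0531). In cKO, Kif3a was called in 3 of 9 other settings and in 1 of 8 omissions, and Kif15 in 1 of 8 other settings. A call in WT alone does not show a difference between the genotypes, and the test of that difference is given with the interaction. The call of Kif14 in cKO (log2 fold change 0.24, adjusted p = 0.0347) was lost without cKO GV replicate 2, 3 or 4 or cKO MII replicate 1 or 2 (adjusted p up to 0.0862).

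**Figure D4:**
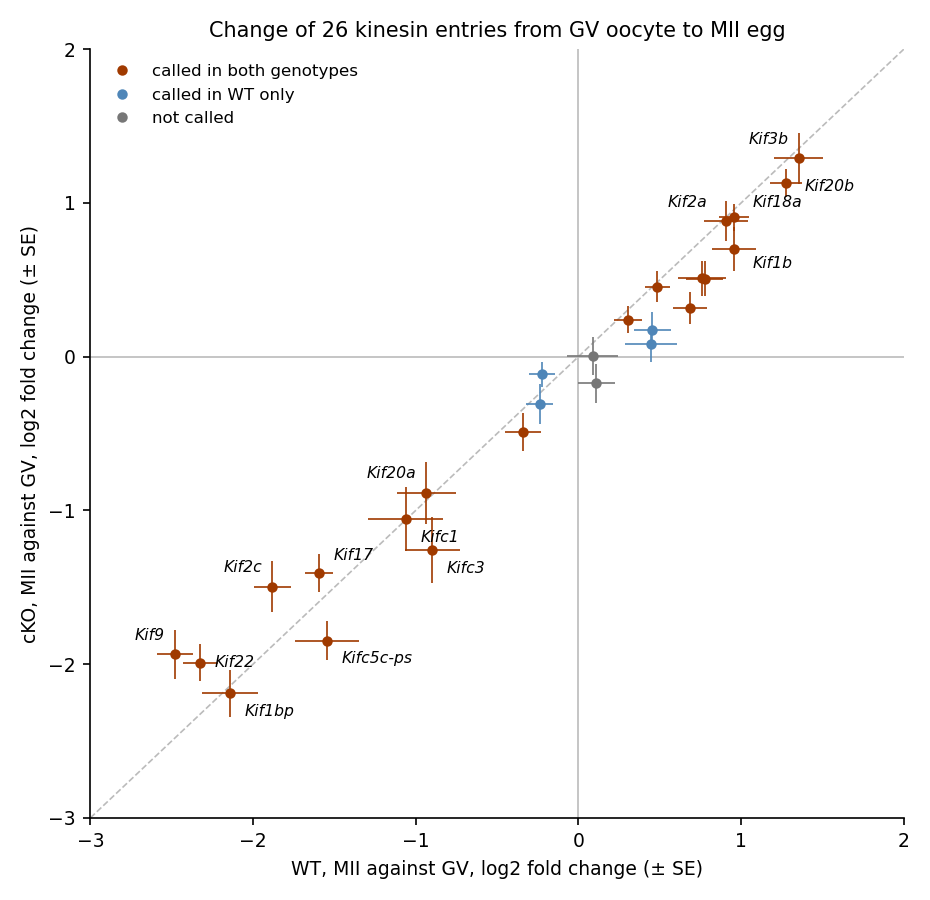
Log2 fold change of floored FPKM from GV oocytes to MII eggs in WT (horizontal) against cKO (vertical) for 26 kinesin entries, with bars of 1 SE and a dashed line of equal change. The 20 entries called in both genotypes lie at the lower left or upper right. The 4 called in WT only lie no farther from 0 on the vertical axis than Kif3a, at -0.31.

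The 3' ends of these transcripts were read, because cytoplasmic polyadenylation elements there recruit the machinery that lengthens poly(A) tails during maturation. TTTTAT and TTTTAAT were searched as such elements and AATAAA and ATTAAA as polyadenylation signals, on the transcript strand and in the last 100 bases of 1 GENCODE M21 transcript per gene (build GRCm38). An ATTAAA can overlap a TTTTAT. The stretches below (30 bases each, motifs in capitals) belong to the 3 named motors with the largest rise and the 3 with the largest fall in WT.
Kif20b, rising, chr19:34975706-34975735, plus strand: aaTTTTAATtcAATAAAtatatcagtaata
Kif18a, rising, chr2:109341709-109341738, plus strand: taTTTTATtacttggtatATTAAAgatgta
Kif2a, rising, chr13:106958996-106959025, minus strand: cttcatacAATAAAttgttagaaagcttaa
Kif9, falling, chr9:110525150-110525179, plus strand: ataaaattactTTTTATttcctgtctgaaa
Kif22, falling, chr7:127027731-127027760, minus strand: acgtgttgtgtaaatacagtTTTTATtcca
Kif2c, falling, chr4:117159639-117159668, minus strand: tacctaacAATAAAgaaagaagaaaaaaaa

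An element lay in the window of 2 of the 12 kinesins that rose in WT (Kif18a and Kif20b), beside 30.5% of the 2259 entries that rose in the whole table. It lay in 3 of the 9 kinesins that fell and have a full window (Kif9, Kifc1 and Kif11), beside 14.4% of 4345. The 3' UTRs of Kif22 and Kif17 are shorter than the window, at 62 and 65 nt, and were left out of these shares. A match describes letters in the annotated end and is not a tested site. The median transcript length was 5614 nt for the 12 kinesins that rose and 3161 nt for the 11 that fell and have annotation, beside 3480.5 and 2556 nt for all rising and falling entries. Median 3' UTRs were 1270.5 and 538 nt in the kinesins and 1227.5 and 758 nt in all entries.

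The genotypes were then compared in GV oocytes, which asks what Psma7 deletion did to the stored kinesin transcripts. None of the 26 kinesin entries tested was called in limma, 0 had an unadjusted p under 0.05, and in 0 did the groups fail to overlap. Of all 11062 entries, 0.118% were called, 7.62% were higher and 3.06% lower at an unadjusted p under 0.05, and groups did not overlap in 6.67%. The log2 fold changes ran from -0.27 (Kif2a, SE 0.15) to 0.34 (Kif1bp, SE 0.17), with SEs of 0.08 to 0.27, and their median was 0.07 against 0.04 for all entries. For the leading transcripts Kif22, Kif17 and Kif2c, the cKO minus WT log2 differences were 0.03 (SE 0.13), 0.06 (SE 0.08) and -0.16 (SE 0.13).

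In eggs, 2 of 24 kinesin entries were higher in cKO and 0 were lower, beside 6.53% and 1.49% of all 9492 entries. The calls were Kif9 and Kif22, which had fallen during maturation in both genotypes. The paper reports that some ovulated cKO oocytes extruded no first polar body or stayed at the GV stage. The labels call the cKO libraries MII and do not say whether such cells were left out. A difference in stage and one in genotype therefore cannot be told apart in this comparison. Kif9 was at 0.946, 1.03, 0.925 and 1.09 FPKM in WT and at 1.38, 1.54, 1.98 and 2.00 FPKM in cKO eggs. The lowest cKO library was above the highest WT library (log2 fold change 0.73, SE 0.16, adjusted p = 0.0333). Its WT mean was 0.997 FPKM, so Kif9 passed the filter of 1 FPKM through the cKO libraries. The floor of 1 raised the WT values of 0.946 and 0.925 FPKM, which narrows the WT spread behind this p-value. Kif9 kept its call with a floor of 0.1 FPKM and with no filter. Kif22 was at 41.2, 45.9, 48.4 and 45.8 FPKM in WT and at 58.5, 53.1, 68.3 and 54.2 FPKM in cKO eggs. Again the groups were apart (log2 fold change 0.36, SE 0.09, adjusted p = 0.0477). A two-sided exact permutation test of either gave p = 0.0286, the smallest that 4 against 4 libraries allow. Groups without overlap always give this p-value, so it adds nothing to their separation. Kif5b, Kif18a, Kif24 and Kif2a, all lower in cKO, had the same value.

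Neither call was firm. Kif9 kept its call without cKO MII replicate 1 or 2 and Kif22 only without cKO MII replicate 2. Leaving out any WT MII replicate, or cKO MII replicate 3 or 4, ended both, with adjusted p from 0.0282 to 0.0985 for Kif9 and from 0.0357 to 0.133 for Kif22 over the 8 omissions. The log2 fold change stayed at 0.65 to 0.83 for Kif9 and at 0.29 to 0.41 for Kif22.

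As a share of the GV mean of the same genotype, Kif22 remained at 19.8 ± 1.31% in WT eggs and 25.1 ± 2.98% in cKO eggs, and Kif9 at 17.4 ± 1.31% and 26.4 ± 4.77%. Beside them stood 397 transcripts that fell more than 10-fold in WT on floored values, chosen on the WT libraries with kinesins left out by rule. Their summed FPKM, which weighs abundant transcripts most, remained at 5.93 to 6.80% of their summed GV mean in WT eggs. In cKO MII libraries 1 to 4 it remained at 12.7, 8.80, 34.5 and 19.0%. In the same 4 libraries, Kif22 remained at 25.1, 22.8, 29.4 and 23.3% and Kif9 at 21.1, 23.5, 30.3 and 30.5%. Kif17 remained there at 30.8, 36.6, 47.1 and 37.9%. Kif2c remained at 46.6, 35.5, 31.4 and 29.1%, highest in library 1. Whether the kinesin values follow the summed share was not tested. Kif17 remained at 33.1 ± 2.97% and 38.1 ± 6.73% and Kif2c at 27.2 ± 3.44% and 35.7 ± 7.75% in WT and cKO eggs, with overlap in each.

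Groups did not overlap for 6 of the 24 kinesins, which is 25.0%, beside 20.7% of all entries. In 4 of them the cKO values were the lower ones. Kif5b was at 7.81, 8.62, 9.38 and 8.29 FPKM in WT and at 7.04, 6.88, 6.64 and 6.05 FPKM in cKO eggs (log2 fold change -0.36, SE 0.10, adjusted p = 0.0584). It missed the threshold here and passed it in 3 alternatives, with a mean of at least 5 FPKM required, after median-ratio rescaling and with all 16 libraries in 1 fit (adjusted p from 0.0311). The other 3 were Kif18a (-0.18, SE 0.06), Kif24 (-0.23, SE 0.09) and Kif2a (-0.30, SE 0.11 on the log2 scale), with adjusted p = 0.0960, 0.148 and 0.103. At an unadjusted p under 0.05, 2 of 24 kinesins were higher and 6 lower in cKO eggs, beside 20.6% and 8.8% of all entries, and the median log2 fold change of the 24 was -0.12 against 0.07 for all entries. Of the 3 leading transcripts of eggs, Kif20b had a log2 fold change of -0.25 (SE 0.09, adjusted p = 0.0981), Kif18a that given above, and Kif23 -0.05 (SE 0.07, adjusted p = 0.669).

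**Figure D5:**
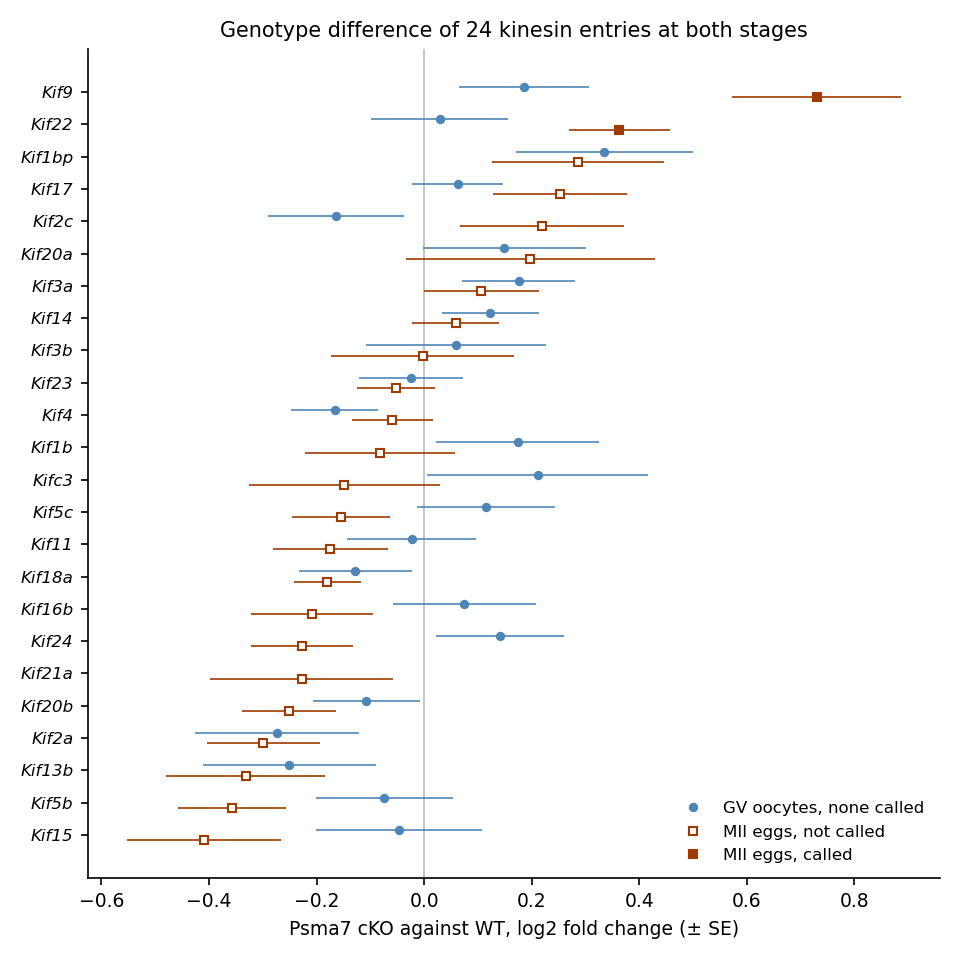
Log2 fold change of floored FPKM, cKO against WT, for the 24 kinesin entries tested in MII eggs (squares, filled where called) and for the same entries in GV oocytes where tested (circles), with bars of 1 SE. Kif9 and Kif22 carry the 2 filled squares at 0.73 and 0.36, and no GV circle lies beyond 0.34 on either side.

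Whether maturation changed kinesins differently in cKO was asked with the genotype by stage interaction over all 16 libraries. None of 26 kinesin entries was called, beside 1.26% of all 10615 entries, and at an unadjusted p under 0.05 there were 1 higher (Kif9) and 1 lower (Kif24), beside 12.7% and 5.03% of all entries. The interaction was 0.54 (SE 0.18, adjusted p = 0.134) for Kif9, -0.37 (SE 0.13, adjusted p = 0.147) for Kif24 and 0.33 (SE 0.17, adjusted p = 0.310) for Kif22, on the log2 scale. For the entries called in WT maturation alone it was -0.28 (Kif5b, SE 0.15), -0.36 (Kif15, SE 0.20), 0.11 (Kif4, SE 0.11) and -0.07 (Kif3a, SE 0.15), with adjusted p from 0.354 to 0.866. The interaction shares libraries with each comparison above.

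Partners of kinesins were counted in the same fits. Of 9 light chains and cargo adaptors, most were low. Klc1, Klc2 and Klc3, light chains of conventional kinesin, and Kifap3, the accessory subunit that joins Kif3a and Kif3b, stayed under a mean of 1 FPKM in every group, and the mitochondrial adaptor Trak1 led with 5.13 ± 0.525 FPKM in WT GV oocytes. All 11 spindle partners were tested, and in WT maturation 4 rose and 4 fell, beside the 26.1% and 52.4% of all entries. Tpx2, which activates Aurora A on the spindle, rose (log2 fold change 0.74, SE 0.07), as did Prc1, the bundler of midzone microtubules that binds Kif4 (0.59, SE 0.09).

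Of 10 other microtubule motors and subunits, 8 were tested in WT maturation, 1 rose and 6 fell, beside the same shares of all entries. The one that rose was Cenpe, the kinetochore kinesin whose symbol lies outside the Kif names, from 68.8 ± 9.56 to 137 ± 1.36 FPKM (log2 fold change 1.00, SE 0.10). None of the 3 lists had a call in GV oocytes or in the interaction, beside 0.118% and 1.26% of all entries. In eggs, 2 of 11 spindle partners, 1 of 8 other motors and subunits and 0 of 1 adaptor tested were higher in cKO. None was lower. Of all entries, 6.53% were higher and 1.49% lower. The 3 were the spindle kinase Aurka (log2 fold change 0.42, SE 0.09, adjusted p = 0.0325), the chromosomal passenger Birc5 (0.60, SE 0.15, adjusted p = 0.0456) and the dynactin subunit Dctn2 (0.93, SE 0.21, adjusted p = 0.0369). All 3 had fallen in WT maturation, a comparison that shares the WT egg libraries. Aurka stood at 109.8 ± 7.07 FPKM in WT and 147 ± 14.8 FPKM in cKO eggs, Birc5 at 196 ± 19.7 and 301 ± 62.2, and Dctn2 at 1.18 ± 0.276 and 2.40 ± 0.709.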

How the data were processed

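The values were used as the authors deposited them, in FPKM per entry and library. The submitters' processing notes name TopHat2 2.1.1, Cufflinks 2.2.1 and build mm10, and the annotation is not given in the sources used here. ERCC RNA was added at lysis, but 0 ERCC entries are in the table, so amounts per cell were not analysed here. Columns were matched to samples by the names in the labels, and 0 columns belonged to no sample.

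Log2 was taken of FPKM with a floor of 1. Entries averaging 1 FPKM or more across the libraries of a comparison were tested with limma 3.58.1 (R 4.3.3, empirical Bayes with an intensity trend), fitted on the whole table and adjusted by Benjamini-Hochberg over all entries tested. Each comparison used its own 8 libraries, and the interaction all 16. Fold changes are on this floored scale and understate changes of low transcripts. Single members were also compared by two-sided exact permutation tests (70 arrangements). FPKM gives no counts, so no counting intervals were attached. On simulated data with 200 changed entries, limma recovered 98% in GV libraries (6 false calls) and 96.5% in MII libraries (13 false calls). The changes were placed in entries averaging at least 5 FPKM, with independent noise. They were larger than every kinesin difference between genotypes given here. The recovery of differences as small as those was therefore not tested.

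The members, roles and gene lists were chosen with earlier results of these data known. Named entries had a mean of at least 5 FPKM in some group or a call in a genotype comparison or the interaction. Positions, lengths and 3' ends were matched by symbol to GENCODE M21, which held all 45 names. Alternatives were a floor of 0.1 FPKM, log2(FPKM + 1), a filter of 5 FPKM or none, median-ratio rescaling, no trend, replicate number as a block, entries summed by name, all 16 libraries in 1 fit, and each library left out in turn. Deviations from the group means correlated at -0.496 to 0.285 between libraries that share a replicate number, so numbers were not used as pairs. Other steps ran in Python 3.11.15 (pandas 2.3.3, numpy 2.4.6 and scipy 1.17.1), with figures from matplotlib 3.10.9.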

Additional observations from a re-analysis of the deposited data

Results flagged for a closer look

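In each of the 4 groups of 4 libraries, the highest or lowest value of each of the 18 named entries was compared with the gap to its neighbour (Dixon's criterion). Of 72 groups tested, 5 held a library that stood apart, and chance alone flags about 1 in 20 groups. Kif14 was at 22.4 FPKM in WT GV replicate 1, above the other WT GV libraries at 20.1 to 20.4 FPKM. In WT GV replicate 3, Kif1bp was at 7.58 FPKM where the others lay at 10.7 to 11.1, and Kif2a was at 8.22 FPKM where the others lay at 5.79 to 5.88. Kif5c was at 5.55 FPKM in WT GV replicate 1, below the others at 6.97 to 7.22 FPKM. Kif3a was at 14.0 FPKM in cKO MII replicate 1, below the others at 18.3 to 19.0 FPKM.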

How the results depend on the processing

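The number of kinesins called in GV oocytes and in the interaction was 0 under every alternative run, and the counts for WT and cKO maturation stayed within 1.5 times their values. The 2 calls in eggs (cKO against WT) depended on the settings. Log2(FPKM + 1), no filter on low values and no intensity trend each gave 1 call (Kif9 in all 3), and leaving out single libraries gave 0 to 2. With a replicate block, which is a paired fit, 0 were called in eggs, and the WT maturation calls of Kif4 and Kif3a and the cKO maturation calls of Kif14 and Kif24 were lost. The labels do not say that numbers mark shared animals, and in 1 of 16 same-number pairs (4 in each of 4 comparisons) the libraries correlated best with their own number, so this was not taken as the main result. Rescaling and a mean of at least 5 FPKM each kept 2 calls but put Kif5b, lower in cKO, beside Kif9 or Kif22. No called kinesin changed direction under any alternative run. Of single results in WT maturation, 203 of 209 kept their call over the other settings and 178 of 192 over the omissions. Over the whole table, calls in eggs numbered 761, 459 without the filter, 501 without the trend, 108 with the block, 1582 with all 16 libraries in 1 fit and 3 to 1160 with single libraries left out, in GV oocytes 13 and 5 to 157 over all alternatives, and in the interaction 134 and 41 to 651. Kif9 in eggs, near 1 FPKM, rested on as few as 32 estimated fragments.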
